A study of Drosophila melanogaster with 44 samples.

Results

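The effect of losing Mod(mdg4)-N, a splice variant of the Drosophila chromatin protein Mod(mdg4), was compared between whole ovaries of a mutant fly and cultured ovarian somatic cells (OSCs) with a knockdown (KD). For each gene, the difference in response was the log2 change in ovary (mutant against wild type) minus the log2 change in OSCs (Mod(mdg4)-N KD against EGFP KD). A positive difference means that the gene's ovary change lay above its OSC change. The comparison used 10 of the 12 mRNA-seq libraries among the 44 samples of the series. Of 17807 genes in each library's table, 9012 had more than 1 CPM (counts scaled to a common library total) in at least 2 of the 10 libraries and were tested.

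The study asked what Mod(mdg4) variants do in ovarian cells. The 3 wild-type ovary libraries were from y1 w1118 flies and the 3 mutant ovary libraries from flies homozygous for Mod(mdg4) RN1-2/1-2 with y1 and w1118 as well, so these alleles are shared by control and mutant, and both were kept at 25 °C. The mutant allele is a homozygous frameshift in the exon that only variant N carries, made with Cas9 and kept as 1 line, and the fly ages are not given in the labels. OSCs, a line of follicle cell origin, were grown at 26 °C and transfected with an siRNA against EGFP (2 libraries, the control) or against Mod(mdg4)-N (2 libraries), a transient depletion. The sources used here do not state whether the mutant and wild-type lines share the rest of their genome, so in ovary the allele and a difference between lines cannot be told apart. Between ovary and OSCs, a germline mutation or a transient siRNA, the temperature, and an organ of many cell types or a culture of 1 type also go together and cannot be told apart. The labels do not say that libraries of a group came from separate animals or cultures, so p-values measure the spread between these libraries, which may be technical.

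Mod(mdg4) proteins share an N-terminal BTB domain, and each variant adds its own C-terminal part because the common exons are joined to different last exons, in part by splicing between separate transcripts. One variant works with the insulator proteins Su(Hw) and CP190, which bind DNA and shape chromatin contacts. An ovary holds germ cells, among them polyploid nurse cells that make most of its RNA, and a layer of somatic follicle cells, whereas OSCs hold no germ cells.

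The knockdown in OSCs rested on siRNAs against the variant's own exon, and these are shown because they set which transcript was lost there. The study's oligonucleotide list gives 3 of them, all matching the minus strand of chromosome 3R of Release 6 at 1 place in the genome. Capitals mark the 19 bases that match mod(mdg4) and lower case marks the overhang.
N_1: AGCAGGAACUGGAGGAGUAtt
N_2: CUACCGAGAUCGAGAUGCAtt
N_3: CCUAGGAGUUAUCAGCUAAtt

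N_1 matched chr3R:21372819-21372837, N_2 chr3R:21372687-21372705 and N_3 chr3R:21372531-21372549. All 3 sites lay in exon 5 (chr3R:21372173-21373080) of the mod(mdg4)-RN transcript and in no other of the gene's 22 annotated transcripts. N_1 and N_2 lay in the coding part of that exon and N_3 in its untranslated part. Which of them was used for the sequenced OSCs is not stated in the list.

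At the level of the whole gene, mod(mdg4) (chr3R:21350846-21377401) had 653, 745 and 927 CPM in wild-type ovary, 455, 585 and 677 in mutant ovary, 640 and 605 in EGFP KD and 582 and 558 after Mod(mdg4)-N KD. The mutant libraries overlapped the wild-type libraries, and the KD libraries lay below the EGFP KD libraries. The difference in response was -0.31 (SE 0.26, adjusted p = 0.51). Because all variants and several overlapping mod(mdg4) genes of the annotation are counted within this span, the values are no check on the loss of variant N.

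The libraries held 14455653 to 20244584 counts, so that a count of 3, taken as the limit of detection, was 0.148 to 0.208 CPM. The biological coefficient of variation was 0.297 among the ovary libraries and 0.0800 among the OSC libraries, and the test used 1 shared estimate of 0.236. Of the marker lists, 7 follicle and somatic cell markers summed to 1557 to 1756 CPM in OSCs and 193 to 320 CPM in ovary. The 13 germline markers summed to 216 to 236 CPM in OSCs and 3613 to 4651 CPM in ovary. Sums of muscle markers were also higher in OSCs (363 to 425 CPM against 109 to 322 in ovary), as were those of neuron markers (64.8 to 70.2 against 0.861 to 4.8). These sums rest on part of each list. In each OSC group 4 of the 11 muscle and 2 of the 6 neuron markers were at or under 3 counts. Only 1 neuron marker passed the filter for testing. Haemocyte and fat body sums were lower in OSCs, and testis sums overlapped. The gap junction gene zpg of germ cells had no count in any OSC library, while other germline markers were detected there. Summed over 23 late follicle cell genes of the eggshell, wild-type ovary libraries had 4891 to 15416 CPM and mutant libraries 18591 to 22920 CPM. The part of these egg-stage markers in the ovary changes was not tested, and in whole ovaries more cells of a type and more RNA per cell cannot be told apart.

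The response to loss of Mod(mdg4)-N differed between ovary and OSCs for 298 genes, 3.31% of those tested. For 226 genes (2.51% of those tested) the ovary change lay above the OSC change, and for 72 genes (0.799%) it lay below. The ovary effect alone was called for 2428 genes, 26.9%, of which 1340 (14.9%) were higher and 1088 (12.1%) lower in the mutant. With the ovary libraries fitted on their own, 865 genes were higher and 474 lower. The spread of the ovary libraries (0.297) is larger than the shared estimate (0.236) behind the ovary calls given here. The OSC effect alone was called for 0 genes (0%) by edgeR, with a lowest adjusted p of 0.27 and 75 genes at an unadjusted p under 0.05, and DESeq2 called 3. With the replicate number as a block, which pairs the libraries, 669 genes differed in response (393 above and 276 below), 283 of them among the 298 in the same direction. The ovary effect with this block was called higher for 1582 genes and lower for 1723.

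Every one of the 298 genes was also called for the ovary effect, with the same sign as the difference. Their median absolute log2 change was 0.91 in ovary and 0.08 in OSCs, against 0.32 and 0.07 over all genes tested. The calls select large ovary changes, so the first of these values is a description. The absolute difference in response had quartiles of 0.70, 0.96 and 1.89, and 142 genes exceeded 1. The OSC change had the opposite sign to the ovary change in 68.8% of the 298 genes, a share that selection on the difference of the changes raises by itself, and 17 had an unadjusted p under 0.05 in OSCs.

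**Figure D1:**
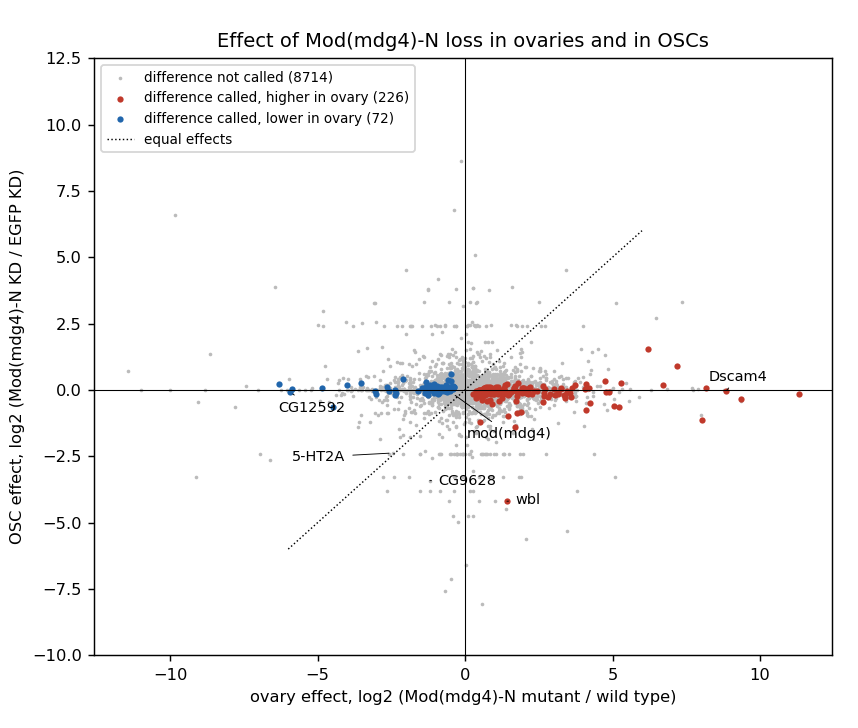
Each point is a gene tested, with its log2 change in ovary (mutant over wild type) on the x axis and in OSCs (Mod(mdg4)-N KD over EGFP KD) on the y axis. The 298 genes with a difference in response are coloured by direction, the dotted line marks equal changes, and the coloured genes spread along the x axis while most stay near 0 on the y axis (median absolute log2 change of 0.91 against 0.08).

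Across the 6826 genes above 1 CPM in all 10 libraries, the Pearson correlation of the ovary and OSC log2 changes was 0.0074 and the Spearman correlation 0.032, over genes, which are not independent replicates. Among the 2233 genes called in ovary and expressed in OSCs, the OSC change had the same sign in 1136. In 22 of the 2233 genes (0.985%), whatever the sign, the OSC change had an unadjusted p under 0.05. Over all 7773 tested genes expressed in OSCs it was 43 (0.553%).

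Most genes that differed in response were expressed in OSCs. A gene was counted as expressed where it exceeded 1 CPM in all 4 OSC libraries, as not detected where it had at most 3 counts in each, and as low otherwise. By this measure 283 of the 298 genes were expressed in OSCs, 213 of them above and 70 below. Of all genes tested, 7773 (86.3%) were expressed in OSCs. With at least 10 counts in each OSC library as the definition, 286 genes were expressed, and with more than 1 TPM, the deposited abundance scaled for transcript length, 275.

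For the expressed genes, the 95% interval of the OSC change lay within 2-fold in both directions for 259 of the 283 genes, and its bounds lay a median of 0.30 from the estimate on the log2 scale. Over all tested genes expressed in OSCs it did so for 6525 of 7773. The called genes were selected in part by a small error of the difference, and an interval within 2-fold still holds changes as large as their median of 0.91 in ovary.

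The remaining 14 genes were low in OSCs (12 above, 2 below) and 1 gene, wbl, was not detected. Genes called in ovary but absent from OSCs were seldom called for the difference: 1 of 63 genes not detected (1.59%), 14 of 132 low genes (10.6%) and 283 of 2233 expressed genes (12.7%). The median absolute ovary change ran the other way, at 2.73 for the called genes not detected in OSCs, 2.15 for the low genes and 0.51 for the expressed genes. The standard error of the difference had a median of 2.07, 0.83 and 0.18 in these ovary-called genes, in the same order. For the 139 tested genes with no count in any OSC library, 13 of them called in ovary, the test had no OSC change to use and called 0 genes. The share of expressed genes among the 298 cannot be read apart from this limit and from the larger errors of genes with few OSC counts.

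**Figure D2:**
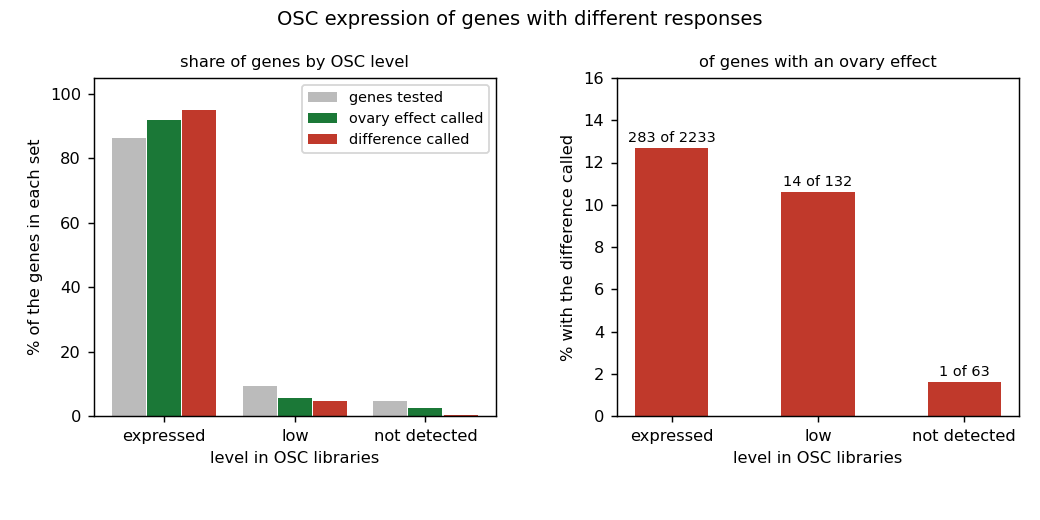
The left panel gives, in percent, how the genes tested, those called for the ovary effect and those called for the difference divide by their level in OSCs. The right panel gives the percent of ovary-called genes with a called difference at each level: 283 of 2233 expressed, 14 of 132 low and 1 of 63 not detected.

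Levels per transcript length were compared in TPM. The 226 genes above had median values of 42.5 TPM in EGFP KD, 32.1 TPM in wild-type ovary and 65.7 TPM in mutant ovary. The 72 genes below had 37.0, 51.9 and 26.3 TPM. EGFP KD exceeded wild-type ovary in mean TPM for 145 of the 226 genes (64.2%) and 25 of the 72 genes (34.7%), against 3995 of all 9012 genes (44.3%). Wild-type levels enter both this share and the calls, so it is given without a test. In CPM, the mutant ovary was nearer to EGFP KD than the wild-type ovary was for 110 of the 213 expressed genes above (51.6%) and 29 of the 70 below (41.4%), close to or under the 55.4% of all tested genes expressed in OSCs.

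Dscam4, CG46312 and CG17470 were at or near 0 in wild-type ovary and present in mutant ovary and OSCs. Dscam4 (FBgn0263219, chromosome 3L), a cell surface protein of the immunoglobulin superfamily related to Dscam1, had 0.179, 0.0593 and 0.108 CPM in wild-type ovary, 68.7, 55.8 and 46.0 in mutant ovary, 55.9 and 53.5 in EGFP KD and 55.5 and 51.8 after Mod(mdg4)-N KD. Mutant ovary and OSCs were at one level and wild-type ovary stood apart. The mutant mean was at least 329-fold above the limit of 3 counts per wild-type library, and the OSC change was -0.03, giving a difference of 8.89 (SE 0.34, adjusted p = 1.09e-05).

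CG46312 (X) had 0, 0.296 and 0 CPM in wild-type ovary, 70.1, 59.3 and 74.3 in mutant ovary, 42.0 and 40.8 in EGFP KD and 36.0 and 30.0 after Mod(mdg4)-N KD (difference 9.69, adjusted p = 1.25e-04). Its exons overlap those of eIF5, a translation initiation factor, on the same strand, and its counts were not whole, so reads may be divided between them. CG17470 (2L) had no count in wild-type ovary, 15.4, 25.1 and 14.2 CPM in mutant ovary, and 1.04 to 1.89 CPM in the 4 OSC libraries. The mutant mean was at least 106-fold above the limit of 3 counts per library, and OSCs held far less of this RNA than mutant ovary. The fitted difference of 11.47 (SE 0.88, adjusted p = 0.0027) depends on the model's prior count because wild type is at 0.

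dpr19, of the Dpr family of neuronal surface proteins, and Tdh, a threonine dehydrogenase, were at 0 in wild-type ovary and near the limit of detection in mutant ovary. dpr19 had 0 counts in each wild-type library, 4, 8 and 3 in the mutant, 50 and 69 in EGFP KD and 50 and 28 after Mod(mdg4)-N KD. Tdh had 0 counts in wild type, 4, 3 and 5 in the mutant, 51 and 30 in EGFP KD and 44 and 32 after Mod(mdg4)-N KD. Both were expressed in OSCs, and 1 mutant library of each was at the limit of 3 counts, with adjusted p of 0.046 and 0.049 that rose to 0.077 and 0.093 with the replicate block. In all, 8 of the 213 expressed genes above had at most 3 counts in every wild-type ovary library.

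Other genes were present in wild-type ovary and rose further. CG11241 (3L) had 3.88, 3.02 and 4.20 CPM in wild-type ovary, 79.2, 61.1 and 70.5 in mutant ovary, 4.64 and 4.03 in EGFP KD and 3.17 and 2.92 after Mod(mdg4)-N KD. It was 19.0-fold higher in the mutant, with all mutant libraries far above the other 7, and the difference was 4.75 (SE 0.25, adjusted p = 5.97e-05). CG32625 (X) had 1.31, 0.889 and 1.61 CPM in wild-type ovary, 35.3, 52.6 and 64.1 in mutant ovary, and 5.68 to 9.39 CPM in OSCs (difference 5.03, adjusted p = 0.0015).

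**Figure D3:**
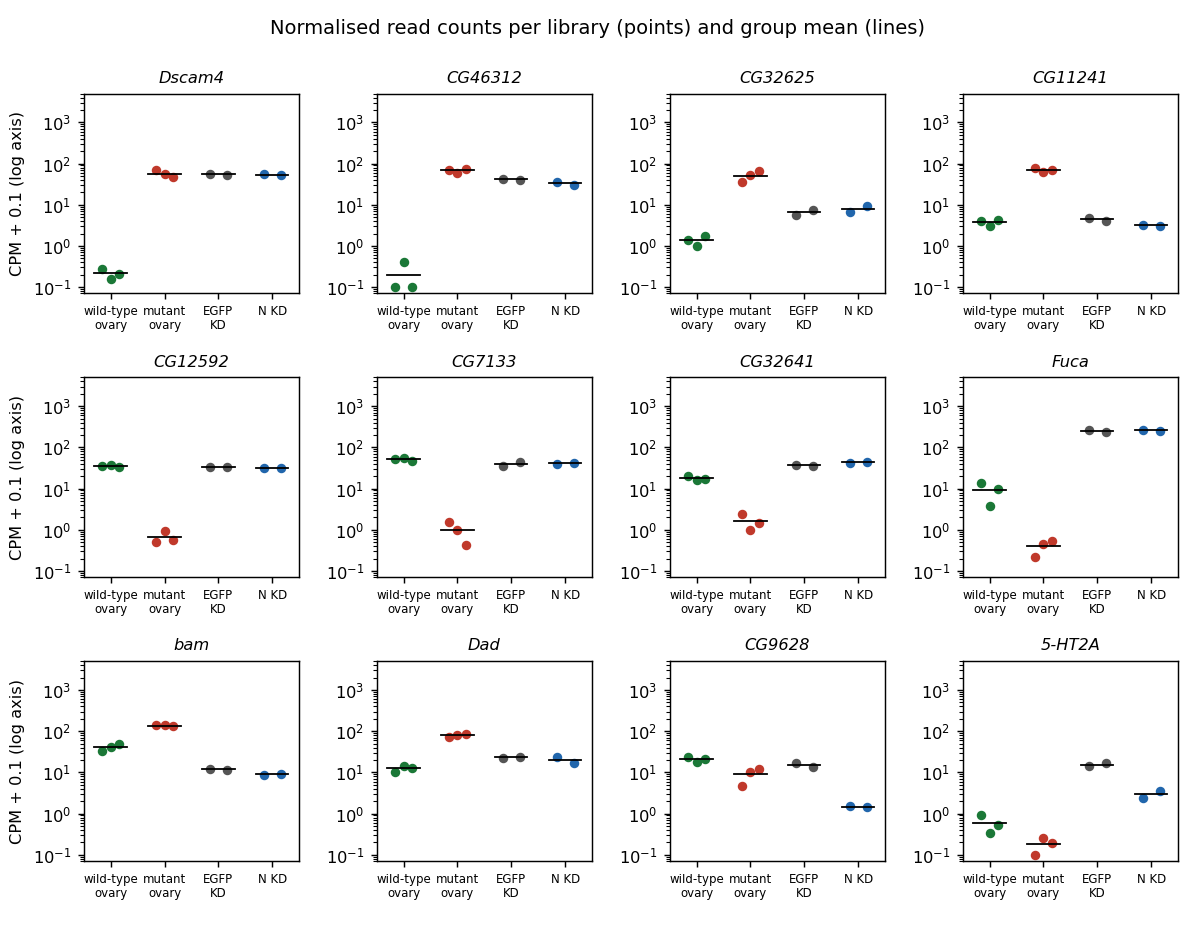
CPM in each of the 10 libraries on a log axis (0.1 added so that a count of 0 can be drawn), 1 panel per gene, with a line at each group's mean. In Dscam4 the mutant ovary libraries (46.0 to 68.7 CPM) sit at the OSC level and the wild-type ovary libraries near 0, and in CG12592 the mutant ovary alone is low. CG9628 is lower in Mod(mdg4)-N KD and in mutant ovary than in their controls. 5-HT2A is lower in Mod(mdg4)-N KD than in EGFP KD and near the limit of detection in both ovary groups.

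Among the genes below, CG12592 (3R) had 35.0, 37.2 and 33.5 CPM in wild-type ovary, 0.397, 0.819 and 0.475 in mutant ovary, 33.8 and 32.8 in EGFP KD and 32.3 and 30.9 after Mod(mdg4)-N KD. It was 62.5-fold lower in the mutant and at 1 level in the other 7 libraries (difference -5.87, SE 0.27, adjusted p = 2.67e-05). CG7133 (3L) had 52.4, 54.4 and 46.3 CPM in wild type, 1.47, 0.870 and 0.332 in the mutant, and 36.0 to 42.9 CPM in OSCs, which is 57.2-fold lower in the mutant (difference -5.91, adjusted p = 5.72e-04). Its neighbour CG7130, 533 bases away and picked after its values were seen, was also called (difference -1.62, adjusted p = 0.042).

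srl (3R), the fly PGC-1 homologue that drives mitochondrial and nucleolar gene programmes, had 352, 464 and 495 CPM in wild-type ovary, 75.1, 43.9 and 38.2 in mutant ovary, 185 and 152 in EGFP KD and 179 and 150 after Mod(mdg4)-N KD. It fell in ovary to below the OSC level, and the OSC groups overlapped (difference -3.02, adjusted p = 0.0086). Fuca, an alpha-L-fucosidase, had 13.9, 3.74 and 9.58 CPM in wild-type ovary, 0.113, 0.358 and 0.427 in mutant ovary, and 232 to 269 CPM in OSCs (difference -4.92, adjusted p = 0.014). CG12880 had 11.7 to 12.6 CPM in wild type, 0.793 to 2.09 in the mutant and 3.42 to 4.79 in OSCs (difference -2.86, adjusted p = 0.029).

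At the edge of detection in ovary, lncRNA:CR46123 had 17, 6 and 6 counts in wild type and 0 in each mutant library, with 60 to 99 counts in OSCs (adjusted p = 0.038). CG14072 had 5, 11 and 4 counts in wild type and 1, 0 and 0 in the mutant, with 367 to 469 CPM in OSCs (adjusted p = 0.037). Both RNAs thus belong to OSCs far more than to either kind of ovary, and their ovary folds rest on few counts.

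Several of the largest differences were in genes with a near copy elsewhere in the genome. Of the 296 called genes on the chromosomes searched, 11 shared at least 10% of their exons' 50-base stretches with the exons of another gene, a search added after the values were seen. CG32641 (X) shared 99.7% with CG32640. CG32641 had 329, 268 and 322 expected counts in wild-type ovary, 41.3, 17.5 and 28.9 in mutant ovary and 569 to 766 in OSCs. CG32640 had 301, 294 and 384 in wild type, 401, 394 and 352 in the mutant and 0 in every OSC library. The difference for CG32641 alone was -3.80 (adjusted p = 0.003). Summed over the pair, wild-type ovary had 630, 562 and 706 counts, mutant ovary 442, 411 and 381, and OSCs 569 to 766, so the lower value in the mutant is far smaller for the pair than for CG32641 alone.

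CG12592 shared 71.4% of its stretches with sle, a nucleolar protein gene, which had 6862, 8404 and 10186 expected counts in wild type and 10336, 10714 and 13054 in the mutant. Apl (3L) shared 63.5% with Arts. Apl had 2.86, 1.72 and 7.00 CPM in wild-type ovary, 116, 99.6 and 104 in mutant ovary and 32.7 to 38.9 in OSCs (difference 4.84, adjusted p = 0.0066), while Arts had 7140 to 8683 expected counts in wild type and 6851 to 8406 in the mutant. CG32318 shared 71.5% with Klp61F, a mitotic kinesin. For such genes an expected count depends on how reads were divided between the copies, and the part of this in the differences was not tested.

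The genes low or not detected in OSCs that had the largest differences were CG16798, CG32318, FBgn0037726 and primo-2 above and dachs and CAH7 below. CG16798 had 0, 0 and 0.0538 CPM in wild-type ovary, 7.65, 9.01 and 3.80 in mutant ovary and 0.0712 to 0.378 CPM in OSCs (difference 9.16, adjusted p = 0.0086). CG32318 had 0, 0 and 0.215 CPM in wild type, 17.1, 21.8 and 32.3 in the mutant and 0.0557 to 0.356 in OSCs (difference 8.11, adjusted p = 0.031). Both were above 1 CPM in mutant ovary alone among the 4 groups.

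primo-2, a low molecular weight tyrosine phosphatase whose exons overlap primo-1, had 0 counts in wild type and 16, 23 and 22 in the mutant (adjusted p = 0.046, and 0.105 with the replicate block). FBgn0037726, a gene with no symbol in the annotation used, had 0.0596 to 0.119 CPM in wild type, 13.5, 12.1 and 7.12 in the mutant and 0.0611 to 0.378 in OSCs (difference 6.55, adjusted p = 0.014). dachs, an unconventional myosin of the Fat signalling pathway, had 7.45, 6.40 and 10.8 CPM in wild type, 0.510, 0.307 and 0.285 in the mutant and 0.356 to 1.51 in OSCs (difference -3.83, adjusted p = 0.046, and 0.072 with the block). CAH7, a carbonic anhydrase, had 43.1 to 51.1 CPM in wild type, 10.5 to 11.3 in the mutant and 0.501 to 1.57 in OSCs (difference -2.52, adjusted p = 0.043). The groups of ovary libraries did not overlap for any of these.

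The gene not detected in OSCs, wbl, an endoplasmic reticulum protein that follicle cells need to set the dorsoventral axis, had 7.81, 6.70 and 6.35 CPM in wild-type ovary and 25.9, 16.5 and 13.4 in mutant ovary. OSC libraries had 2 and 2 counts in EGFP KD and 0 in both Mod(mdg4)-N KD libraries. Its difference of 5.62 (adjusted p = 0.046) rests mostly on these few OSC counts, since the ovary change was 1.42.

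CG9628 and 5-HT2A had lower values without variant N in both systems. The study named both as differentially expressed from these same OSC libraries, so their OSC side is not independent evidence. CG9628 (chr3L:14622796-14628174) had 23.0, 17.4 and 21.4 CPM in wild-type ovary, 4.65, 10.1 and 12.2 in mutant ovary, 16.5 and 13.0 in EGFP KD and 1.39 and 1.35 after Mod(mdg4)-N KD. The groups did not overlap in either system. The ovary change was -1.20 (adjusted p = 0.025) and the OSC change -3.42 (95% interval -4.42 to -2.42, adjusted p = 0.27), a difference of 2.22 (SE 0.52, adjusted p = 0.059). With the OSC libraries fitted on their own, whose spread is smaller, the CG9628 OSC effect had an adjusted p of 0.00254 and the CG9628 difference of 0.00797. Its exons overlap RecQ5, a DNA helicase, on the opposite strand.

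5-HT2A, a serotonin receptor, had 0.835, 0.237 and 0.431 CPM in wild-type ovary, 0, 0.154 and 0.0950 in mutant ovary, 13.9 and 16.4 in EGFP KD and 2.34 and 3.49 after Mod(mdg4)-N KD. The changes were of like size, -2.46 in ovary (adjusted p = 0.039, and 0.078 with the replicate block) and -2.38 in OSCs (95% interval -3.93 to -0.82, adjusted p = 1). The 5-HT2A OSC effect was called by DESeq2 (adjusted p = 0.0435), the newer edgeR algorithm (0.0465) and the separate fits (0.022). The difference was -0.08 (adjusted p = 0.95), and its ovary side rests on levels near the limit of detection.

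Many genes of the ribosome and of energy metabolism were called in ovary, while their medians in OSCs were close to 0. Calls for the difference are read against 2.51% above and 0.799% below over all genes tested, and ovary calls against 14.9% higher and 12.1% lower. Of 88 tested cytoplasmic ribosomal protein genes, which build the ribosome, 6 were called below (6.82%) and 1 above (1.14%), with a median difference of -0.53, against -0.0035 over all genes tested. The ovary effect was called for 57 of the 88 (54 lower, 61.4%, and 3 higher, median -0.47), and the median OSC change was 0.05. This group was singled out by the study from these ovary libraries, so its direction in ovary is not independent evidence. Its count called for the difference was 30 by DESeq2 and 47 with the replicate block. It was 21 without mutant replicate 1, 4 without wild-type replicate 1, 1 without wild-type or mutant replicate 2, and 0 without any 1 of the OSC libraries.

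RpL15, of the large subunit, had 1756, 1572 and 1567 CPM in wild-type ovary, 798, 732 and 624 in mutant ovary, 2102 and 1915 in EGFP KD and 1956 and 2094 after Mod(mdg4)-N KD (difference -1.20, adjusted p = 0.012). The mutant was low and the OSC groups overlapped. RpS5b, a copy of RpS5a used mainly in germ cells, had 1334, 1159 and 1038 CPM in wild type, 642, 506 and 439 in the mutant and 13.5 to 17.7 in OSCs (difference -1.24, adjusted p = 0.043, chosen after its values were seen). RpL36, RpS6, RpS23 and RpS19a were the others below. The 1 called above, RpLP0-like (difference 0.66), is a homologue of a ribosome assembly factor and not a structural subunit.

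Ribosome biogenesis factors, which process rRNA and assemble subunits, went the other way. Of 24 tested, 11 were called above (45.8%) and 0 below (median difference 0.52), and in ovary 19 (79.2%) were higher and 0 lower (median 0.52, against a median OSC change of -0.0012). Nnp-1 had 183, 192 and 168 CPM in wild-type ovary, 313, 294 and 306 in mutant ovary, 332 and 327 in EGFP KD and 326 and 307 after Mod(mdg4)-N KD (difference 0.81, adjusted p = 0.01). Here the mutant reached the OSC level. l(2)k09022 (difference 0.67, adjusted p = 0.018) followed. NHP2 and Nop56, proteins of small nucleolar ribonucleoproteins, had differences of 0.94 and 0.86. The count was 7 without wild-type replicate 3, 1 without wild-type replicate 2, 3 without mutant replicate 2, 1 without EGFP KD replicate 1, and 0 without EGFP KD replicate 2 or either Mod(mdg4)-N KD replicate.

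Mitochondrial genes shared this direction. Of 72 mitochondrial ribosomal protein genes, 5 were called above (6.94%) and 0 below (median difference 0.32), with 40 (55.6%) higher and 0 lower in ovary and a median OSC change of 0.03 (11 called by DESeq2 and 6 with the replicate block). mRpS6 had 17.5, 18.6 and 18.6 CPM in wild type, 44.3, 39.3 and 34.7 in the mutant and 33.3 to 37.7 in OSCs (difference 1.02, adjusted p = 0.015), and mRpL43 had a difference of 1.12 (adjusted p = 0.02). Of 64 nuclear genes of oxidative phosphorylation, 3 were called above (4.69%, near the 2.51% of all genes) and 0 below (median difference 0.39), with 54 (84.4%) higher and 0 lower in ovary and a median OSC change of 0.01 (14 called by DESeq2 and 11 with the replicate block). ATPsynC, the c subunit of ATP synthase, had 1599, 1550 and 1435 CPM in wild type, 3209, 2640 and 2455 in the mutant and 1350 to 1454 in OSCs (difference 0.87, adjusted p = 0.033). ND-23, of complex I, had a difference of 0.70 (adjusted p = 0.03). Without any 1 of the OSC libraries, 0 genes of either list were called. The mutant ovary libraries lay above the wild-type libraries in each gene given in full, and the remaining called member of oxidative phosphorylation was ATPsynB.

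**Figure D4:**
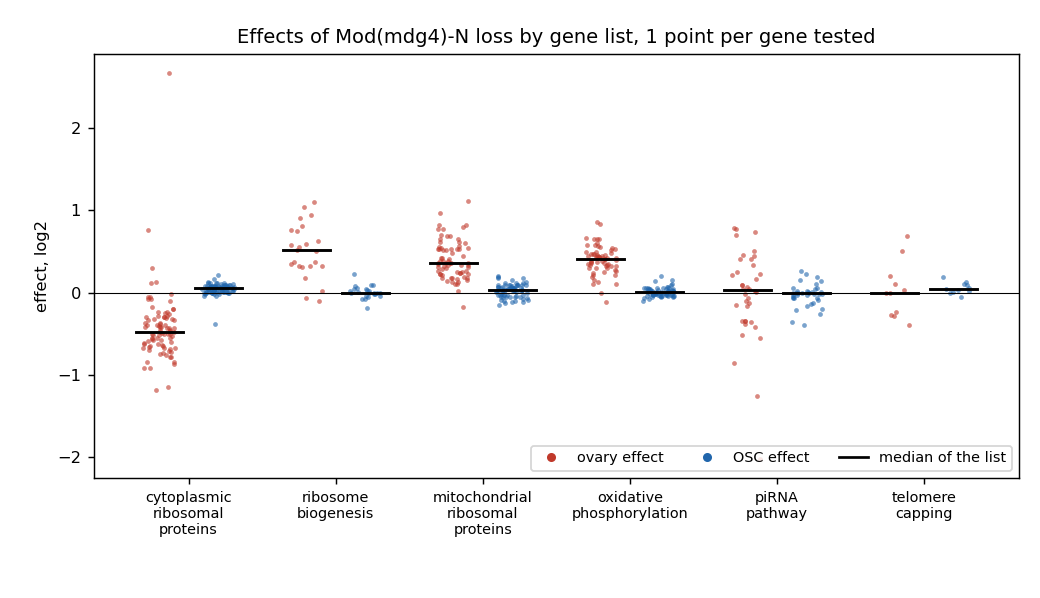
One point per tested gene of 6 gene lists, with its log2 change in ovary and in OSCs and a line at each median. Cytoplasmic ribosomal proteins lie below 0 in ovary (median -0.47) and ribosome biogenesis, mitochondrial ribosomal and oxidative phosphorylation genes above (0.52, 0.36 and 0.41), while the OSC medians of all 6 lists lie near 0.

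Of 36 proteasome genes, 1 was called above (median difference 0.22): Rpt3R, a copy of the ATPase subunit Rpt3 used in testis. Of 38 piRNA pathway genes, which silence transposons through small RNAs, 2 were called above (5.26%) and 1 below (2.63%, median 0.05), with 6 higher (15.8%) and 7 lower (18.4%) in ovary, shares near those of all genes in ovary. zuc, the nuclease that cuts piRNA precursors, had a difference of 0.78 (adjusted p = 0.032), and del, a partner of Rhino at piRNA clusters, of 0.91 (adjusted p = 0.041). arx, a zinc finger partner of Piwi, had 47.0, 42.7 and 38.9 CPM in wild type, 15.1, 18.3 and 20.4 in the mutant, 21.3 and 26.9 in EGFP KD and 21.2 and 20.7 after Mod(mdg4)-N KD (difference -1.06, adjusted p = 0.04, and 0.056 with the block). In this gene the mutant ovary fell to about the OSC level.

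No gene was called for the difference by edgeR among 11 telomere capping genes (median -0.01), 17 insulator and architectural protein genes (-0.09), 18 ecdysone genes, 14 follicle rupture genes or 6 antimicrobial peptide genes. At an unadjusted p under 0.05 these lists held 1, 0, 3, 1 and 2 genes. DESeq2 called 1 ecdysone gene and none of the others, and the replicate block 2 ecdysone genes and 1 insulator gene. All of the telomere capping and insulator genes were expressed in OSCs. Only 10 of the 18 ecdysone, 8 of the 14 follicle rupture and 0 of the 6 antimicrobial peptide genes were. For genes with few or no OSC counts the test could hardly call a difference, so the absence of calls says little about them. The median difference of the antimicrobial peptide genes was -4.35. In ovary, 2 telomere capping genes were higher (18.2%, near the 14.9% of all genes tested) and 3 insulator genes lower (17.6%, against 12.1%). Of 19 heat shock protein genes 1 was above, Hsp70Bc (difference 3.09), which shares 84.2% of its stretches with Hsp70Bbb. Its OSC change of -1.39 rests on 19.0 and 13.1 expected counts in EGFP KD and 6.8 and 5.0 after Mod(mdg4)-N KD. Summed over the pair, these were 19.0 and 24.5, and 25.9 and 24.1. In ovary the pair had 142, 183 and 84.4 in wild type and 371, 315 and 295 in the mutant. The part of read division between the copies was not tested. DESeq2 called 9 heat shock genes, the separate fits 6 and the block 3, and 11 had an unadjusted p under 0.05. Of 45 genes within 200 kb of a chromosome end 1 was below, galectin (difference -0.73), a sugar-binding protein, against 6 by DESeq2, 4 with separate fits, 4 with the block and 8 at an unadjusted p under 0.05. Of the marker lists, germline (13 tested) had bam above, eggshell (23 tested) had psd above, and testis (2 of 20 matched genes tested) had topi above. Over the 13 germline genes the median difference was -0.66, and 7 had a difference below 0. In ovary 2 of them were higher (15.4%) and 5 lower (38.5%, against 12.1% of all genes tested). DESeq2 and the separate fits each called 3 germline genes, and 4 had an unadjusted p under 0.05. psd, a vitelline membrane organizer, had 94.3, 107 and 116 CPM in wild-type ovary, 396, 276 and 196 in mutant ovary and 0.891 to 2.90 in OSCs (difference 2.44, adjusted p = 0.048). topi, a regulator of meiosis genes in testis, had 0.835, 0.593 and 0.431 CPM in wild type, 4.19, 2.41 and 5.27 in the mutant and 12.3 to 14.9 in OSCs (difference 2.77, adjusted p = 0.031). Both had mutant libraries above all wild-type libraries. Follicle and somatic cell markers (7 tested) and muscle markers of the ovary sheath (11 tested) had 0 called by edgeR, with 2 and 0 at an unadjusted p under 0.05 and 2 and 0 called by DESeq2. Haemocyte (4 tested), fat body (3) and neuron (1) markers had 0 called by edgeR and 0 at an unadjusted p under 0.05. Of the 3 fat body markers, 0 were expressed in OSCs.

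For some genes the call did not depend on any single library. Leaving out each of the 10 libraries in turn, the number of genes called ranged from 19 (without Mod(mdg4)-N KD replicate 2) to 428 (without mutant replicate 3), and 18 genes, 14 above and 4 below, were called every time. The count was 22 without Mod(mdg4)-N KD replicate 1, 42 and 65 without EGFP KD replicate 2 and 1, and 131 and 134 without wild-type and mutant replicate 2. The 18 include Dscam4, CG46312, CG17470, CG32625, CG11241, CG12592, CG7133 and CG32641 described above. The rest were chosen after their values were seen.

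Dad, the inhibitory Smad that BMP signalling induces, had 10.1, 14.6 and 12.7 CPM in wild-type ovary, 74.0, 81.4 and 86.0 in mutant ovary, 22.3 and 24.1 in EGFP KD and 23.0 and 16.4 after Mod(mdg4)-N KD (difference 2.92, adjusted p = 0.0013). bam, which moves germline stem cell daughters into differentiation, had 33.3, 41.4 and 50.1 CPM in wild type, 139, 141 and 131 in the mutant, 11.8 and 11.6 in EGFP KD and 8.63 and 9.04 after Mod(mdg4)-N KD (difference 2.13, adjusted p = 0.003). Both rose in ovary with no overlap of the groups.

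pk, a planar polarity protein, had 0.954 to 1.51 CPM in wild type, 10.3 to 10.8 in the mutant and 141 to 181 in OSCs (difference 3.27, adjusted p = 3.1e-04). hpRNA:CR18854, a hairpin RNA that is a source of small interfering RNAs, had 62.9, 45.9 and 50.4 CPM in wild type, 605, 471 and 449 in the mutant and 203 to 229 in OSCs (difference 3.24, adjusted p = 4.06e-04). Rsf1, a splicing regulator, was the only other gene below, with 48.1, 50.9 and 54.1 CPM in wild type, 21.8, 20.3 and 19.9 in the mutant and 137 to 147 in OSCs (difference -1.28, adjusted p = 0.0016). The others above were conv, a protein of the tracheal matrix (4.14), CG4098 (1.83), CG7564 (1.78), yuri, known from spermatid nuclei (1.57), and Dus2, a tRNA dihydrouridine synthase (1.31). CG4098 shares 45.3% of its 50-base stretches with CR18217, and the part of this in its difference was not tested. CR18217 had 525, 306 and 468 expected counts in wild type and 638, 738 and 875 in the mutant. CG7564, which shares 11.4% of its 50-base stretches with RhoGAP18B, had a mean of 59.4 CPM in wild type and 196 in the mutant but 40.2 and 45.3 TPM, so its change was far smaller on the length-scaled measure. Of the 293 called genes above 0 in both ovary groups it alone had CPM and TPM changes over 1.5-fold apart. pk and Rsf1 were thus higher in OSCs than in either ovary group, and hpRNA:CR18854 lay between them.

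Across 11 settings of the model, tool and filter, 170 of the 298 genes were called in every setting that tested them, and these include all 18 genes called without each library. One setting kept only genes above 1 CPM in all 10 libraries and so did not test 47 of the 298 genes, among them 9 of the 18. The sign of the difference was kept for all of the 298 genes that a setting tested.

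**Figure D5:**
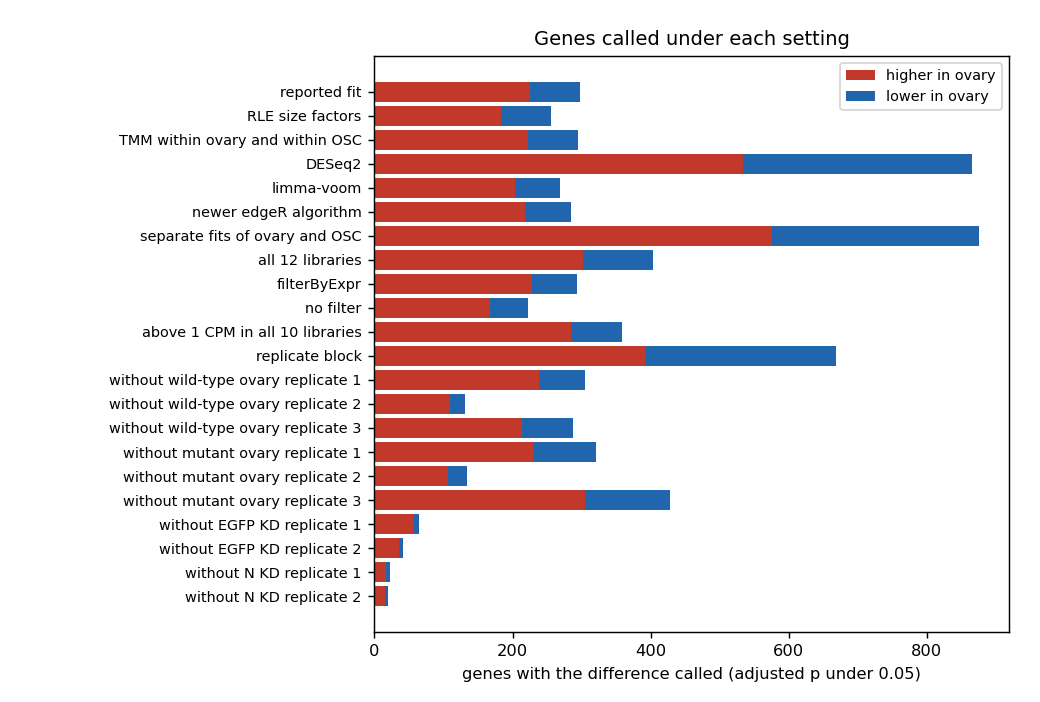
Bars give the number of genes with a called difference under each setting, split into those whose ovary change lay above and below the OSC change. The main setting gives 226 and 72, DESeq2 534 and 331 and the replicate block 393 and 276, and the counts without 1 OSC library are between 19 and 65.

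After a knockdown of all Mod(mdg4) variants in OSCs few genes were called, both among the 298 and over all genes tested. This knockdown had 2 libraries, compared with the same EGFP KD libraries, which the comparisons therefore share. In a fit of 12 libraries 62 of 9087 genes (0.682%) were called for that knockdown, with mod(mdg4) itself at a log2 change of -2.48 (adjusted p = 4.4e-04). Among the 298 they numbered 4 (1.34%), all lower in the knockdown and all higher in mutant ovary: Pfas, a purine synthesis enzyme (-0.96), CG6310 (-1.60), foxo, a transcription factor of insulin signalling (-0.98), and CG10184 (-4.83). These 4 were named after their values were seen.

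The 298 genes lay on all arms, with 45 of 1574 tested genes on X (2.86%), 42 of 1583 on 2L (2.65%), 52 of 1815 on 2R (2.87%), 80 of 1721 on 3L (4.65%), 74 of 2179 on 3R (3.40%) and 3 of 74 on chromosome 4 (4.05%). Within 1 Mb of mod(mdg4) 9 of 146 tested genes (6.16%) were called, within 2 Mb 13 of 281 (4.63%) and within 5 Mb 29 of 795 (3.65%). Among neighbouring tested genes 16 pairs were both called, 11 of them in the same direction. These shares are given without a test, and their relation to line background was not tested.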

How the data were processed

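The 10 mRNA-seq libraries were made from poly(A)+ RNA with a stranded kit. The authors mapped reads to dm6 with RSEM and STAR; their versions, the annotation release and strand settings are not given in the sources used here. The deposited tables hold expected counts, which the authors did not normalize for depth, and TPM, which the authors' RSEM run scaled for length and depth. The length columns were not used. Expected counts were rounded to whole numbers and fitted with edgeR 4.0.16 (R 4.3.3, quasi-likelihood F test with the legacy setting, TMM normalization, 1 mean per group), without a block. Calls were made at 0.05 on p-values adjusted by the Benjamini-Hochberg procedure, and the standard error was the log2 value divided by the square root of F. CPM are TMM-normalized over the 10 libraries. Alternatives included DESeq2 1.42.0 and limma-voom (limma 3.58.1). The fit was tested on simulated data.

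Same-numbered ovary libraries deviated together (correlations of 0.21, 0.27 and 0.22). In OSCs the correlation was 0.13 for same-numbered and -0.13 for other pairs. With 2 libraries per group these values can differ in sign only, so they say little about pairing in OSCs. From the ovary values, the replicate numbers were taken as pairs in both systems in a fit with a block, which the reported fit does not have. Values with the block are given for the main counts and for part of the lists and genes. Libraries of a group were not copies of each other (chi-square per degree of freedom 6.91 to 87.4). Names came from Ensembl 115 (BDGP 6.54) and matched 17710 of 17807 genes.

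Named genes were mod(mdg4), CG9628, 5-HT2A, the 8 largest differences in each direction among called genes expressed in OSCs, up to 4 in each direction among the others, and the 2 with the lowest p of each list with 3 or more calls. Other genes were named after their values were seen. Members and lists were chosen with earlier results of these data known. Limits of 3 counts cover counting error only. Transposon counts, ChIP-seq and Micro-C were not analysed here.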

Additional observations from a re-analysis of the deposited data

Results flagged for a closer look

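The effect of the loss differed between the systems, by the test of the difference itself, for 298 genes, and for the following genes named by rule. Genes above in log2 were CG17470 (11.47), CG46312 (9.69), CG16798 (9.16), Dscam4 (8.89), CG32318 (8.11), FBgn0037726 (6.55), primo-2 (6.30), dpr19 (5.84), CG32625 (5.03), Tdh (4.98), Apl (4.84) and CG11241 (4.75). Genes below were lncRNA:CR46123 (-6.54), CG7133 (-5.91), CG12592 (-5.87), Fuca (-4.92), CG14072 (-4.17), dachs (-3.83), CG32641 (-3.80), srl (-3.02), CG12880 (-2.86) and CAH7 (-2.52). Fitted values of genes with a group at 0 depend on the prior count.

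Of the gene lists, RpL15 (-1.20) and arx (-1.06) were below. Above were RpLP0-like (0.66), mRpS6 (1.02), mRpL43 (1.12), ND-23 (0.70), ATPsynC (0.87), Nnp-1 (0.81), l(2)k09022 (0.67) and zuc (0.78).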

How the results depend on the processing

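The number of genes with a difference in response was 865 with DESeq2, 875 with separate fits of ovary and OSCs and 669 with the replicate block, against 298. The share of calls above was 61.7%, 65.8% and 58.7% in these, against 75.8%. Leaving out each library gave 19 to 428. The ovary effect gave 1339 genes with separate fits and 1322 to 2927 without single libraries, against 2428. Its balance also moved, from 1340 higher and 1088 lower to 1582 and 1723 with the block. DESeq2 gave 1527 and 1712, and RLE in place of TMM normalization 1293 and 1330. In the other settings of model, tool and filter more genes were higher than lower. The OSC effect gave 0 genes, except 3 with DESeq2 (Hsp70Aa, CG9628 and 5-HT2A), 2 with separate fits (247 at an unadjusted p under 0.05), 1 with the newer edgeR algorithm, and 0 to 1 without single libraries (CG9628 without mutant replicate 1). The 5-HT2A difference turned positive at 0.042 with the block, at 0.48 and 0.43 without wild-type and mutant replicate 1, at 0.04 without EGFP KD replicate 1 and at 0.24 without Mod(mdg4)-N KD replicate 2. It ranged from -0.75 to 0.48 without single libraries and passed no threshold. The cause of these shifts was not tested. The block changed the call of no other named gene besides dpr19, Tdh, primo-2, dachs, arx and the ovary effect of 5-HT2A. Depth limits genes near 3 counts, above all those absent from OSCs.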
